A study of Mus musculus with 9 samples.

Results

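Cranial vault tissue of MCAGF8 mutant embryos was set against tissue from the cartilaginous cranial base of control embryos, gene by gene. The study reports that cartilage replaces bone in the MCAGF8 vault. Neither tissue was pure cartilage, as markers of other cell types below show. Libraries were assigned to the groups by name, and the comparison took 6 of the 9 libraries of the series, 3 a side, and each library was made from a pool of 3 tissues, with 9 tissues per group. All embryos were mice of mixed strain at stage E14.5. MCAGF8 embryos came from a cross of Msx2-Cre with CAGF8 mice, so that Cre switched on an Fgf8b allele driven by the CAG promoter and placed at Rosa26. Msx2-Cre acts in the surface ectoderm, and the skin was peeled off the vault before the tissue was taken. Cartilaginous parts of the base came from control embryos, labelled wildtype and described as lacking Cre. They were taken after the vault tissue had been collected and the brain removed. Per the study's methods CAGF8 mice were kept homozygous, so these controls would also carry the Fgf8b allele, with its stop cassette in place. The 3 remaining libraries, of the control vault, served as the values shown beside each result. Control vault and control base thus came from the same set of embryos. Which of their pools share embryos is not given, and p-values measure only the spread between pools.

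The cranial base forms by endochondral ossification: mesenchyme condenses into cartilage, its chondrocytes proliferate in a matrix of type II collagen and aggrecan, and those in the middle enlarge into hypertrophic chondrocytes that secrete type X collagen and are replaced by bone. Hypertrophy is paced by Indian hedgehog from prehypertrophic cells, by parathyroid hormone-related protein from the ends of the element, and by the patched receptor that both senses and reports the signal. The vault lacks this step, since its mesenchyme normally turns into bone directly, and its cells carry regional transcription factors of the head mesenchyme such as those of the Zic, Msx and Alx families.

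The 3 base libraries were far less alike than the 3 MCAGF8 vault libraries, and 1 of them stood apart. The values are FPKM, fragments per kilobase of transcript scaled to the reads mapped in the library, and the Pearson correlation of log2(FPKM + 1) was 0.959 to 0.98 within the MCAGF8 vault and 0.904 to 0.946 within the base. Summed over 33 cartilage matrix genes, FPKM was 2299, 14030 and 2467 in base replicates 1, 2 and 3, 4164, 6581 and 7199 in the MCAGF8 vault and 3252, 4411 and 3185 in the control vault. Base replicate 2 thus held the most cartilage RNA of all 9 libraries, whereas base replicates 1 and 3 held less than each control vault library. The same split appeared in the muscle list, with 15490, 2756 and 7107 in the base, 84.9, 134 and 427 in the MCAGF8 vault and 1519, 8925 and 2472 in the control vault. Counts of the lists described at length are therefore also given, higher first, without base replicate 2 and with it as the only base library, where the lone library is assumed to vary like the other groups. In bulk tissue, fewer cells of a type and less RNA per cell cannot be told apart. The number of reads behind each library is unknown, and between 16006 and 17281 genes reached 1 FPKM.

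Of 18714 genes tested, 1571 (8.39%) were called different between the MCAGF8 vault and the base, 558 (2.98%) higher and 1013 (5.41%) lower in the MCAGF8 vault. Every list count below is to be read against these shares, and each refit count against the shares of its own fit. Calls come from limma on log2(FPKM + 1), at p under 0.05 before and under 0.1 after Benjamini-Hochberg adjustment, and every log2 difference below is MCAGF8 vault minus base on that scale, which understates the change of low genes. For comparison, 113 genes (0.604%) were called between the MCAGF8 and control vaults and 573 (3.06%) between the base and the control vault, and these comparisons share libraries with the main one. The split between higher and lower calls depended on scaling, since 35.5% of calls were higher as deposited, 48.3% with libraries rescaled to the same sum, 48.5% with a common median and 58.7% after quantile normalization. Without base replicate 2 the call count was 4580 (6.35% of genes higher and 18.1% lower), with it as the only base library 984 (2.19% higher and 3.07% lower), and 559 without MCAGF8 vault replicate 1. Many of the lowest genes were muscle and neuron genes, and with the summed muscle and neuron lists as covariates, chosen after seeing the data, 0 genes were called by limma and 976 had an unadjusted p under 0.05. Those covariates separate the tissues and widened the standard error 3.35-fold, and with them 393 of the 1571 called genes changed sign. Genes called higher were longer, with a median exon length of 4591 bases for genes called higher, 3401 for genes called lower and 3553.5 for all, and the slope of log2 FPKM on log2 length ran from -0.213 in base replicate 1 to 0.096 in base replicate 2. With that slope as a covariate, also chosen after seeing the data, 2117 genes were called. Of the main calls, 520 of the 558 higher and 880 of the 1013 lower ones were called again. Beyond that fit, the part of exon length in the calls was not tested.

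**Figure D1:**
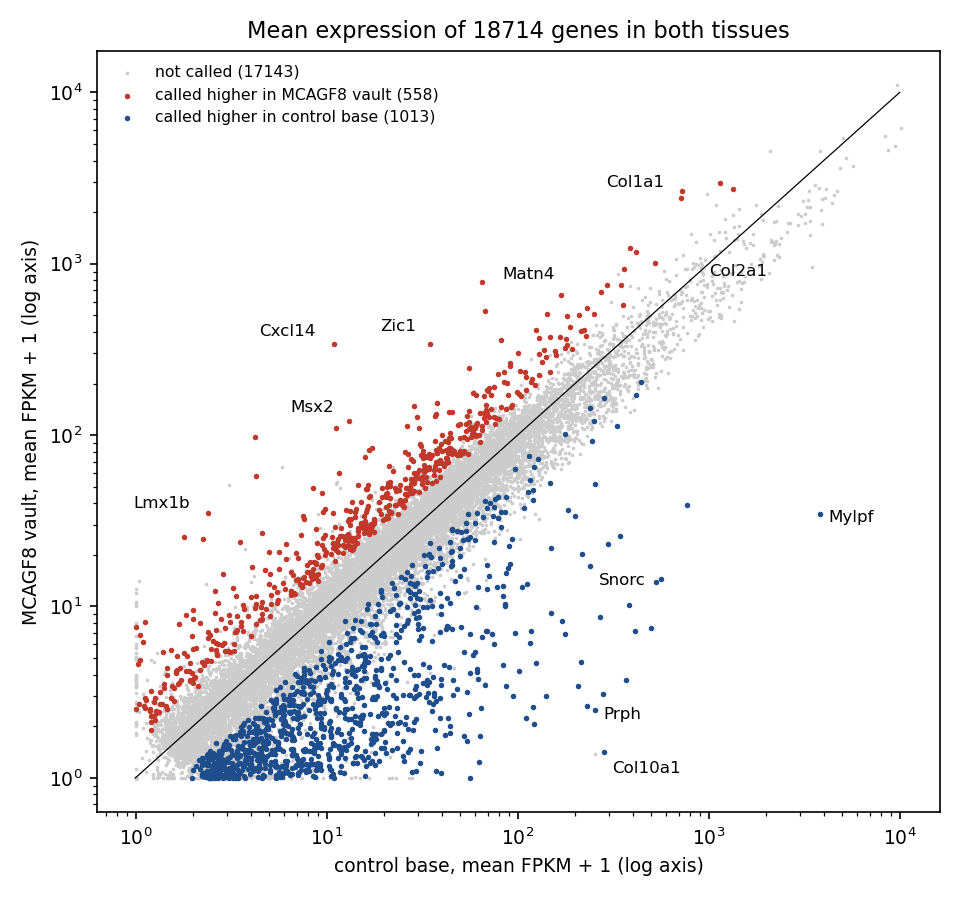
Each point is a gene, with its mean FPKM + 1 in the 3 control base libraries on the x axis and in the 3 MCAGF8 vault libraries on the y axis (both log axes), and called genes in colour. Col10a1 and muscle genes lie far below the diagonal, and Cxcl14, Lmx1b and Zic1 far above it.

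Genes of hypertrophic cartilage were lower in the MCAGF8 vault than in the base. Of 28 genes of the hypertrophic and hedgehog feedback list, 14 were called lower (5.41% of all genes) and 0 higher (2.98%), with a median of -1.19 against -0.0664 over all genes. Col10a1, the type X collagen of hypertrophic matrix, had 0.435, 0.346 and 0.438 FPKM in the 3 MCAGF8 vault libraries and 115, 658 and 74.2 in the base (log2 difference -7.00, standard error 0.65, adjusted p = 0.00171). Every vault library, mutant or control, was below every base library, since the control vault had 2.05, 0.945 and 1.46 FPKM. The promoter is printed because Col10a1 differed more than any other called gene with a mean of at least 5 FPKM in its higher group, and because Mmp13, the collagenase of late hypertrophic cells, lies in the same list with a different promoter. Both are RefSeq sequence of GRCm38.p6 from 250 bases before to 50 after the start site.
Col10a1 (chr10:34389731-34390030, + strand): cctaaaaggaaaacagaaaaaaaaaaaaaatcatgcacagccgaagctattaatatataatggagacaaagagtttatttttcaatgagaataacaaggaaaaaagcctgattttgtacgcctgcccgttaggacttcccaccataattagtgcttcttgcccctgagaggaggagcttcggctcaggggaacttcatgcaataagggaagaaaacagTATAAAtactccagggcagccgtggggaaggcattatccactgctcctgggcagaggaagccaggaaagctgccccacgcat
Mmp13 (chr9:7272264-7272563, + strand): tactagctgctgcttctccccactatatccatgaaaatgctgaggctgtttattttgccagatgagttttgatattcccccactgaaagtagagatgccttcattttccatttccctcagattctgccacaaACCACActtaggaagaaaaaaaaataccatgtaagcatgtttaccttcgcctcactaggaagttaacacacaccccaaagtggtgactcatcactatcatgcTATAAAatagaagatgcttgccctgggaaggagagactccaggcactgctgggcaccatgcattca
Capitals mark the TATA letters TATAAA, 32 bases before the start of Col10a1 and 16 before that of Mmp13, and in Mmp13 also the RUNX core letters TGTGGT or their reverse complement ACCACA at -118. Among 27025 mouse promoters of this length, searched on both strands, 14.2% held TATAAA and 16.9% the RUNX core, and among 12 called members of the hypertrophic list with a promoter entry, 5 held TATAAA and 3 the RUNX core. The SOX letters ACAATG were in 12.8% of all promoters and 2 of the 12. These matches describe the sequence and show no binding.

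Mmp13 had 0.0618, 0.182 and 0.0942 FPKM in the MCAGF8 vault and 4.09, 2.39 and 13.9 in the base (log2 difference -2.52, standard error 0.50, adjusted p = 0.0215). Ihh, the ligand that prehypertrophic chondrocytes release, had 0.911, 1.44 and 1.58 FPKM against 11.03, 23.02 and 8.75 (log2 difference -2.62, standard error 0.36, adjusted p = 0.00662), again without overlap. Panx3, a channel protein of prehypertrophic cells and osteoblasts, had 9.58, 9.96 and 12.1 against 48.4, 117 and 84.8 FPKM (log2 difference -2.79, standard error 0.37, adjusted p = 0.00584), and Sgms2, a sphingomyelin synthase needed for mineralizing bone, had 2.47, 3.19 and 2.63 against 22.1, 56.6 and 36.8 FPKM (log2 difference -3.30, standard error 0.38, adjusted p = 0.00369). The mineral-binding secreted proteins Ibsp and Spp1 were lower too, with log2 differences of -3.81 and -2.87. Unlike for Col10a1, the control vault was not low: Ibsp had 11.5, 50.7 and 12.5 FPKM in the MCAGF8 vault, 189, 199 and 638 in the base and 1487, 679 and 1527 in the control vault. Low Col10a1 was thus common to both vaults, whereas low Ibsp set the MCAGF8 vault apart from both other tissues in these values. For Mmp13 and Ihh, too, the MCAGF8 vault was below the control vault, taken as the ratio to Col2a1 given below. Without base replicate 2 the list gave 15 lower and 2 higher calls, and with it alone 10 lower and 0 higher. Leaving out each library in turn kept 5 of the 6 calls first named for these genes, and the call was lost for Spp1 when MCAGF8 vault 1 was left out (adjusted p up to 0.108), while 3 held against base replicate 2 alone.

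Core cartilage matrix genes, in contrast, were at levels inside the range of the base. Col2a1, the main collagen of cartilage, had 583, 1146 and 1114 FPKM in the MCAGF8 vault and 163, 2292 and 268 in the base (log2 difference 0.96, standard error 0.81, adjusted p = 0.561). Its highest and lowest values were both from the base. Acan, the large aggregating proteoglycan, had 55.7, 87.4 and 131 against 12.7, 241 and 26.5 FPKM (adjusted p = 0.591), and Sox9, the transcription factor that commits cells to cartilage, 40.3, 63.1 and 58.9 against 18.5, 80.3 and 19.96 FPKM (adjusted p = 0.423). Against base replicate 2 alone all 3 were lower in the MCAGF8 vault, and without it they were higher, as the values show. Of 33 cartilage matrix genes, 2 were called higher and 7 lower, with a median of 0.15. Without base replicate 2 these counts were 15 and 7 with a median of 0.89, and with it alone 1 and 11 with a median of -1.50, so this list has no direction that holds for both kinds of base library.

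The members that were called lower included the small transmembrane proteoglycan Snorc, with 7.93, 13.9 and 26.7 FPKM in the MCAGF8 vault, 199, 367 and 150.3 in the base and 25.7, 47.5 and 22.4 in the control vault (log2 difference -3.85, standard error 0.46, adjusted p = 0.00411). Scrg1, a secreted peptide abundant in cartilage, had 2.65, 6.54 and 9.34 against 114, 59.02 and 31.4 FPKM (log2 difference -3.21, standard error 0.50, adjusted p = 0.00999). Comp, the pentameric matrix protein that cross-links collagen fibrils, had 0.366, 1.24 and 6.29 against 11.03, 77.5 and 11.9 FPKM (log2 difference -3.03, standard error 0.80, adjusted p = 0.0653). The other 4 were Prg4 (lubricin, which coats joint surfaces), Cilp, Pcolce2 and Vit, named after their values were seen, at -1.54, -1.79, -2.29 and -2.38. Called higher were Hapln3, a link protein also named after its values were seen, at 1.14, and Matn4, a matrilin that bridges matrix filaments. Matn4 had 514, 819 and 626 FPKM in the MCAGF8 vault, 55.5, 360.03 and 85.5 in the base and 238, 230.1 and 251 in the control vault (log2 difference 2.41, standard error 0.56, adjusted p = 0.0406). Its promoter is printed for contrast with that of Col10a1, again from 250 bases before to 50 after the first of its listed RefSeq start sites in GRCm38.p6.
Matn4 (chr2:164405111-164405410, - strand): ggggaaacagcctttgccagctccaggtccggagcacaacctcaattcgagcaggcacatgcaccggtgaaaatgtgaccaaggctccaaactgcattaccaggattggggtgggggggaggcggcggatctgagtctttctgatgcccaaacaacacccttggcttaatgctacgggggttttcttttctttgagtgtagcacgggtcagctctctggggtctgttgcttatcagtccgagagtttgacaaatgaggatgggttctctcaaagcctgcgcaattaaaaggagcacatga
This window held none of the 3 motifs, so no base is in capitals. Of the 9 calls first named for these genes, 4 held whichever library was left out, and calls were lost for Cilp and Hapln3 when MCAGF8 vault 1 was left out, Comp when MCAGF8 vault 1 or 2 or control vault 1 was left out, Matn4 when any MCAGF8 vault library or control base 3 was left out and Prg4 when MCAGF8 vault 2 or 3 was left out (adjusted p up to 0.245). Against base replicate 2 alone 7 held.

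Because the base libraries held such different amounts of cartilage, each gene was also taken as a ratio to Col2a1 in its own library, as FPKM per 1000 FPKM of Col2a1. For Col10a1 this was 0.746, 0.302 and 0.393 in the MCAGF8 vault and 708, 287 and 277 in the base, a log2 difference of -9.75, with 5.505, 2.05 and 3.48 in the control vault. The 3 base values lay within a factor of 3 of each other although Col2a1 itself spanned 163 to 2292 FPKM. Ihh had ratios of 1.56, 1.26 and 1.42 against 67.7, 10.04 and 32.6, with 17.7, 8.194 and 17.17 in the control vault. Mmp13 had 0.1059, 0.1588 and 0.08454 against 25.15, 1.042 and 51.72, with 11.96, 3.331 and 7.768 in the control vault. For Ihh and Mmp13 the control vault thus overlapped the base and lay above every MCAGF8 vault library. Snorc had ratios of 13.6, 12.1 and 23.97 against 1224, 159.9 and 560.2. Clec3a, a cartilage lectin named after its values were seen, had 3.14, 2.52 and 4.02 against 62.6, 35.3 and 36.9. On this scale, too, the MCAGF8 vault was below every base library for these genes. Matn4 went the other way, with 881, 715 and 562 against 341, 157 and 319, and so did Col9a3, a chain of type IX collagen likewise named after its values were seen, by less, with 1289, 1111 and 1060 against 823, 703 and 1056. The ratio of Acan to Col2a1 overlapped between the tissues, with 95.5, 76.2 and 117 against 78.1, 105 and 98.7.

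Of 40 ratios, 17 were lower and 2 higher in all 3 MCAGF8 vault libraries than in all 3 base libraries, and 21 overlapped. In plain FPKM, 13.0% of all tested genes were lower and 8.91% higher without overlap. The 40 ratios share Col2a1 as their denominator, and no share of such ratios over all genes was computed. Their counts therefore cannot be read against the shares in plain FPKM. All 5 hypertrophic genes tried were among the lower ones, whereas the fibrous collagen genes Col1a1, Col3a1 and Col14a1 overlapped. With 3 libraries a side an exact permutation test cannot go below p = 0.1, which each ratio without overlap reached (adjusted p = 0.211 over the 40), so the test adds no call. Against the summed cartilage matrix in place of Col2a1, 15 of 41 ratios were lower, 2 higher and 24 overlapped.

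**Figure D2:**
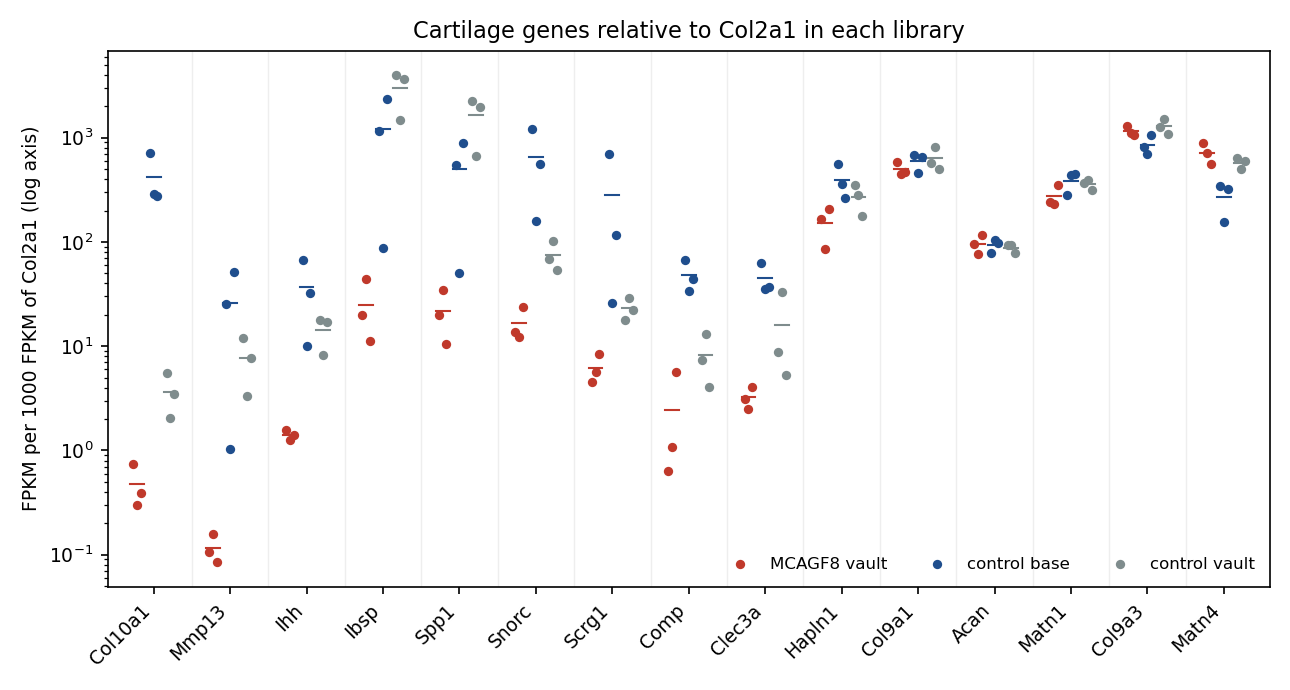
Ratio of each gene to Col2a1 within a library (FPKM per 1000 FPKM of Col2a1, log axis), with 1 point per library and a line at the mean for the MCAGF8 vault, control base and control vault. The base points of Col10a1, 277 to 708, lie above all MCAGF8 vault points, 0.302 to 0.746, while the Matn4 points of the MCAGF8 vault lie above those of the base.

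Of 26 chondrocyte transcription factors 1 was called higher and 6 lower, against 2.98% and 5.41% of all genes, with a median of -0.44. The calls were 6 higher and 8 lower without base replicate 2, 0 and 4 with it alone, and 1 and 2 with libraries rescaled to the same sum. Barx1, a homeobox factor of the facial and pharyngeal mesenchyme, had 1.403, 7.24 and 1.02 FPKM in the MCAGF8 vault, 132, 15.9 and 156 in the base and 12.7, 1.15 and 15 in the control vault (log2 difference -4.37, standard error 1.00, adjusted p = 0.0384). Pax9, a paired box factor of the pharyngeal pouches, teeth and sclerotome, had 0.699, 0.976 and 0.411 against 17.9, 6.47 and 24.1 FPKM (log2 difference -3.18, standard error 0.51, adjusted p = 0.0108). Nkx3-2, a repressor that keeps chondrocytes from maturing, and Foxa2, a forkhead factor of endoderm and notochord that also acts in hypertrophic cells, had log2 differences of -1.26 and -1.34. The others, named after their values were seen, were Sox8 (-1.08) and Mef2c (-1.17), a driver of hypertrophy, on the lower side and Arid5b (0.78), a partner of Sox9, on the higher. Both Barx1 and Pax9 had their lowest base value in replicate 2, the library with the most cartilage RNA and the least pharyngeal epithelium RNA of the 3. With each library left out in turn, 2 of the 7 calls first named for these genes held, and calls were lost for Arid5b when any MCAGF8 vault library or any control vault library was left out, Barx1 when MCAGF8 vault 1 or 3 or control base 1 or 3 was left out, Foxa2 when MCAGF8 vault 1 or 2 was left out, Nkx3-2 when MCAGF8 vault 1 or 3 or control base 1 was left out and Sox8 when any library but control vault 2 was left out (adjusted p up to 0.329). Base replicate 2 alone as the base kept 3 of them.

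Patterning factors were called often and in both directions. Of 63 patterning factors of the vault and face, 22 were called higher and 10 lower in the MCAGF8 vault, 50.8% of the list against 8.39% of all genes, with a median of 0.59. Msx2, a homeobox factor of the growing sutures whose promoter also drives the Cre, had 110.3, 152 and 99.2 FPKM in the MCAGF8 vault, 10.7, 11.8 and 13.8 in the base and 73.9, 77.1 and 89.8 in the control vault (log2 difference 3.19, standard error 0.20, adjusted p = 0.000122). Both vaults were thus many times above the base. Zic1, a zinc finger factor of dorsal head mesenchyme and meninges, had 382, 339 and 298 FPKM against 27.5, 67.8 and 6.57 in the base (log2 difference 3.79, standard error 0.63, adjusted p = 0.0113). Zic4 and Zic2 had differences of 4.10 and 2.76. Zic1 and Zic4 lie head to head on chromosome 9, 3204 bases between their RefSeq start sites, on opposite strands, and their GENCODE gene models overlap, so a read in the shared stretch cannot be assigned if the counting ignored strand, which is not stated.

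Lmx1b, a LIM homeobox factor of dorsal limb and calvarial mesenchyme, had 35.6, 37.4 and 29.9 FPKM in the MCAGF8 vault, 0.783, 0.83 and 2.59 in the base and 23.1, 26.1 and 24.1 in the control vault (log2 difference 3.95, standard error 0.28, adjusted p = 0.000285). C130021I20Rik, annotated as antisense and starting beside it, had 103, 102 and 85.01 FPKM in the MCAGF8 vault, 1.74, 2.71 and 5.25 in the base and 73.6, 104 and 76.9 in the control vault (log2 difference 4.61, standard error 0.29, adjusted p = 0.000122), and its value is uncertain for the same reason of strand. The shared promoter is printed because both genes start within it, in opposite directions, and both were high in both vaults, and the capitals mark the 95 bases between the start sites (RefSeq, GRCm38.p6).
Lmx1b (chr2:33641049-33641348, - strand): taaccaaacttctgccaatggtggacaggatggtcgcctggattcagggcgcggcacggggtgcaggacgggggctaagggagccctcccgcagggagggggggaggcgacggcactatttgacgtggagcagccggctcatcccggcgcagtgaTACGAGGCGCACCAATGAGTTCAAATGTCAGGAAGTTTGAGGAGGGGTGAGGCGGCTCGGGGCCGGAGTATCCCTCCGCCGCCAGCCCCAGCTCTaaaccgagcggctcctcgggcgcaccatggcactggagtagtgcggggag
The promoter windows of the pair share 194 bases. Alx4, an aristaless factor of the vault and face, En1, an engrailed factor of dermis and suture mesenchyme, Twist2, a bHLH factor of dermis, and Tbx15, a T-box factor of head and trunk skeleton, were called higher at 2.47, 2.25, 1.97 and 1.55. On the other side stood factors of the first pharyngeal arch: Dlx1 (-3.55), Dlx2 (-2.95) and Pitx1 (-3.05). Dlx1 and Dlx2 are also brain genes and Pitx1 a pituitary gene. Without base replicate 2 the list gave 27 higher and 16 lower calls, and with it alone 18 and 7. Leaving out each library in turn kept 9 of the 11 calls first named for these genes, and calls were lost for Zic2 when MCAGF8 vault 1 or 2 or control base 1 was left out and Pitx1 when any MCAGF8 vault library or control base 1 or 3 was left out (adjusted p up to 0.173), while 7 held against base replicate 2 alone.

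**Figure D3:**
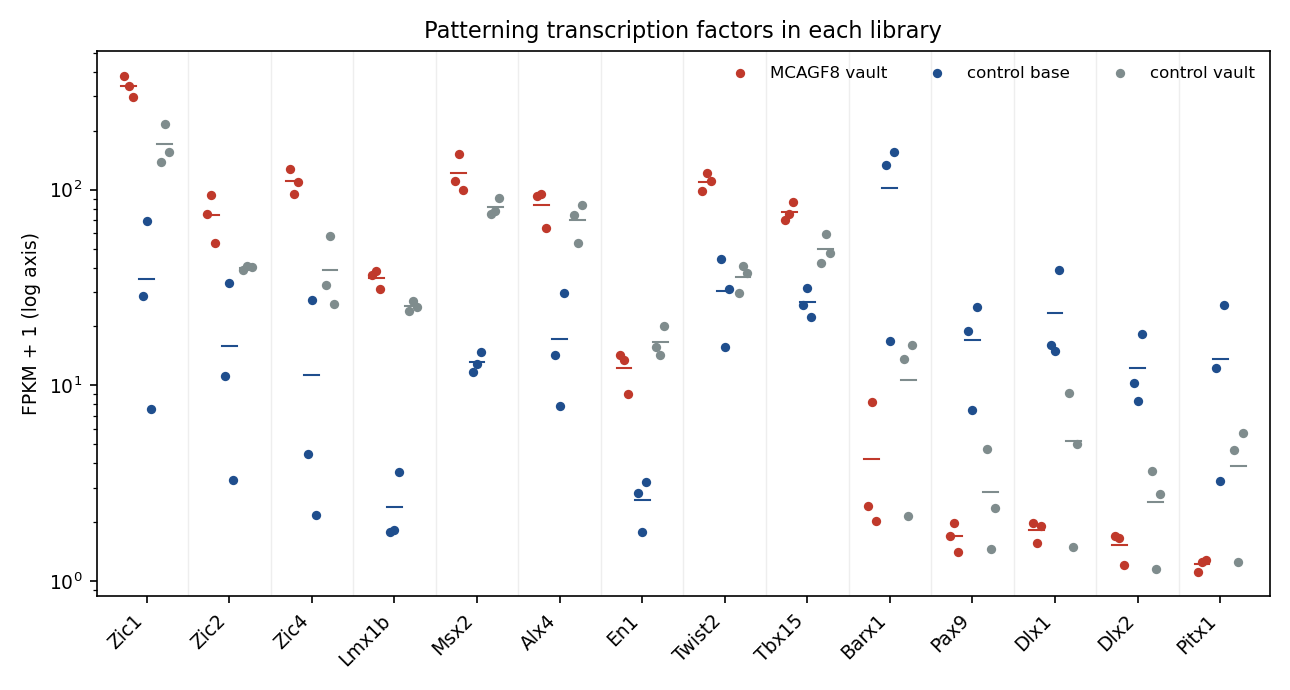
FPKM + 1 (log axis) of patterning genes in each of the 9 libraries, with 1 point per library and a line at the mean, for the MCAGF8 vault, control base and control vault. Msx2 and Lmx1b are high in both vaults and low in all 3 base libraries, whereas Barx1 and Pax9 are highest in base replicates 1 and 3.

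Hox genes are silent in most of the head, and of 39 in the table, 17 reached the mean of 0.5 FPKM needed for a test. The 3 that were called, all higher, had values near 0 in both other tissues and so reached that mean through the MCAGF8 vault alone, which makes their count no support for a direction of the family. Hoxa11, a gene of the forearm and lower leg, had 2.01, 6.07 and 2.72 FPKM in the MCAGF8 vault, 0.0778, 0 and 0 in the base and was listed at 0 in all 3 control vault libraries (log2 difference 2.07, standard error 0.30, adjusted p = 0.00792). Hoxa13, a gene of hand and foot, had 1.93, 10.9 and 4.73 FPKM in the MCAGF8 vault, 0.0739, 0.0406 and 0.0415 in the base and 0, 0.0256 and 0 in the control vault (log2 difference 2.47, standard error 0.42, adjusted p = 0.0118). Hoxc5, a gene of the neck and upper trunk, had 1.597, 1.36 and 1.72 FPKM in the MCAGF8 vault, 0.278, 0 and 0.0709 in the base and 0.0429, 0.281 and 0.0708 in the control vault (log2 difference 1.20, standard error 0.20, adjusted p = 0.0118). An antisense gene overlaps Hoxa11 on the other strand, so its value is uncertain. All 3 calls held with each library left out in turn. Neither this nor their p-values lend support, because high MCAGF8 vault values alone let these genes into the test. Against base replicate 2 alone 2 held.

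Collagens of fibrous tissue were called higher in the MCAGF8 vault than in the base. Of 30 collagen genes outside the cartilage types, 15 were called higher and 2 lower, with a median of 0.90. This was 56.7% of the list, against 8.39% of all genes. Col1a1, the main collagen of bone, dermis and tendon, had 2523, 2666 and 2102 FPKM in the MCAGF8 vault, 500.4, 629 and 1013 in the base and 3676, 2664 and 3912 in the control vault (log2 difference 1.82, standard error 0.35, adjusted p = 0.0188). Col3a1, of loose connective tissue, had 2869, 2916 and 3038 against 1129, 1082 and 1230.3 FPKM (log2 difference 1.36, standard error 0.28, adjusted p = 0.026), and the differences of Col1a2 and the fibril-associated Col14a1 were 1.91 and 1.55. The control vault held as much of this list, with summed FPKM of 13990, 12860 and 14170 against 13200, 13660 and 12730 in the MCAGF8 vault and 4122, 5104 and 5795 in the base. Called lower were Col22a1 (-1.67), found at muscle to tendon junctions, and Col25a1 (-1.19), a gene of muscle and neurons named after its values were seen. Without base replicate 2 the list had 16 higher and 2 lower calls, and with it alone 10 and 1.

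Small leucine-rich proteoglycans, which bind and space collagen fibrils, gave 4 higher and 1 lower calls of 16 (median 0.56, 7 higher and 1 lower without base replicate 2, 5 and 2 with it alone). Bgn, Lum and Fmod were at 1.48, 0.97 and 2.05, together with Tsku, named after its values were seen, at 0.60, whereas Omd, which binds bone mineral, was at -3.18. Of 26 metalloproteinases and inhibitors 9 were called higher and 2 lower (median 0.52, 12 higher and 5 lower without base replicate 2, 4 and 1 with it alone). Adamts2, which trims procollagens I and III, had 75.1, 94.2 and 66.4 FPKM against 21.4, 20.9 and 32.2 (log2 difference 1.64, standard error 0.21, adjusted p = 0.00563), and Mmp19 was at 1.38. The 2 lower ones were Mmp13 and Mmp24 (-2.61). The shares called were 31.2% of the proteoglycan list and 42.3% of the metalloproteinase list, against 8.39% of all genes. The abundant matrix protein Fn1 and the secreted antiangiogenic factor Serpinf1 were called higher at 1.49 and 1.12. With each library left out in turn, 6 of the 13 calls first named for these genes held, and between 0 and 7 were lost without 1 library, most without MCAGF8 vault 1 (adjusted p up to 0.293). Base replicate 2 alone as the base kept 10 of them.

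Bone genes were called in both directions, 44.4% of the list against 8.39% of all genes. Among 27 members 3 were called higher and 9 lower, with a median of -0.73 (3 higher and 11 lower without base replicate 2, 2 and 2 with it alone). The higher ones were Col1a1, Col1a2 and Sparc (1.04), a calcium-binding matrix protein, which are made in all connective tissue. The lower ones act in mineralization: Phospho1, a phosphatase of matrix vesicles, had 9.16, 20.8 and 5.83 FPKM in the MCAGF8 vault, 47.05, 36.2 and 99.6 in the base and 179.8, 90.5 and 240.2 in the control vault (log2 difference -2.30, standard error 0.52, adjusted p = 0.0361), and Ifitm5, an osteoblast membrane protein, had 8.47, 16.9 and 11.1 FPKM in the MCAGF8 vault, 54.6, 33.3 and 159 in the base and 212, 99.3 and 277 in the control vault (log2 difference -2.41, standard error 0.56, adjusted p = 0.0392). Smpd3, a sphingomyelinase needed for mineral, was at -3.30. For Phospho1 and Ifitm5 the MCAGF8 vault was below every base library, and the control vault reached above the base. Leaving out each library in turn kept 1 of the 4 calls first named for these genes, and calls were lost for Ifitm5 when MCAGF8 vault 1 or 3 was left out, Phospho1 when MCAGF8 vault 1 or 3 or control base 3 was left out and Sparc when any library but control base 2 was left out (adjusted p up to 0.302), while 1 held against base replicate 2 alone.

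**Figure D4:**
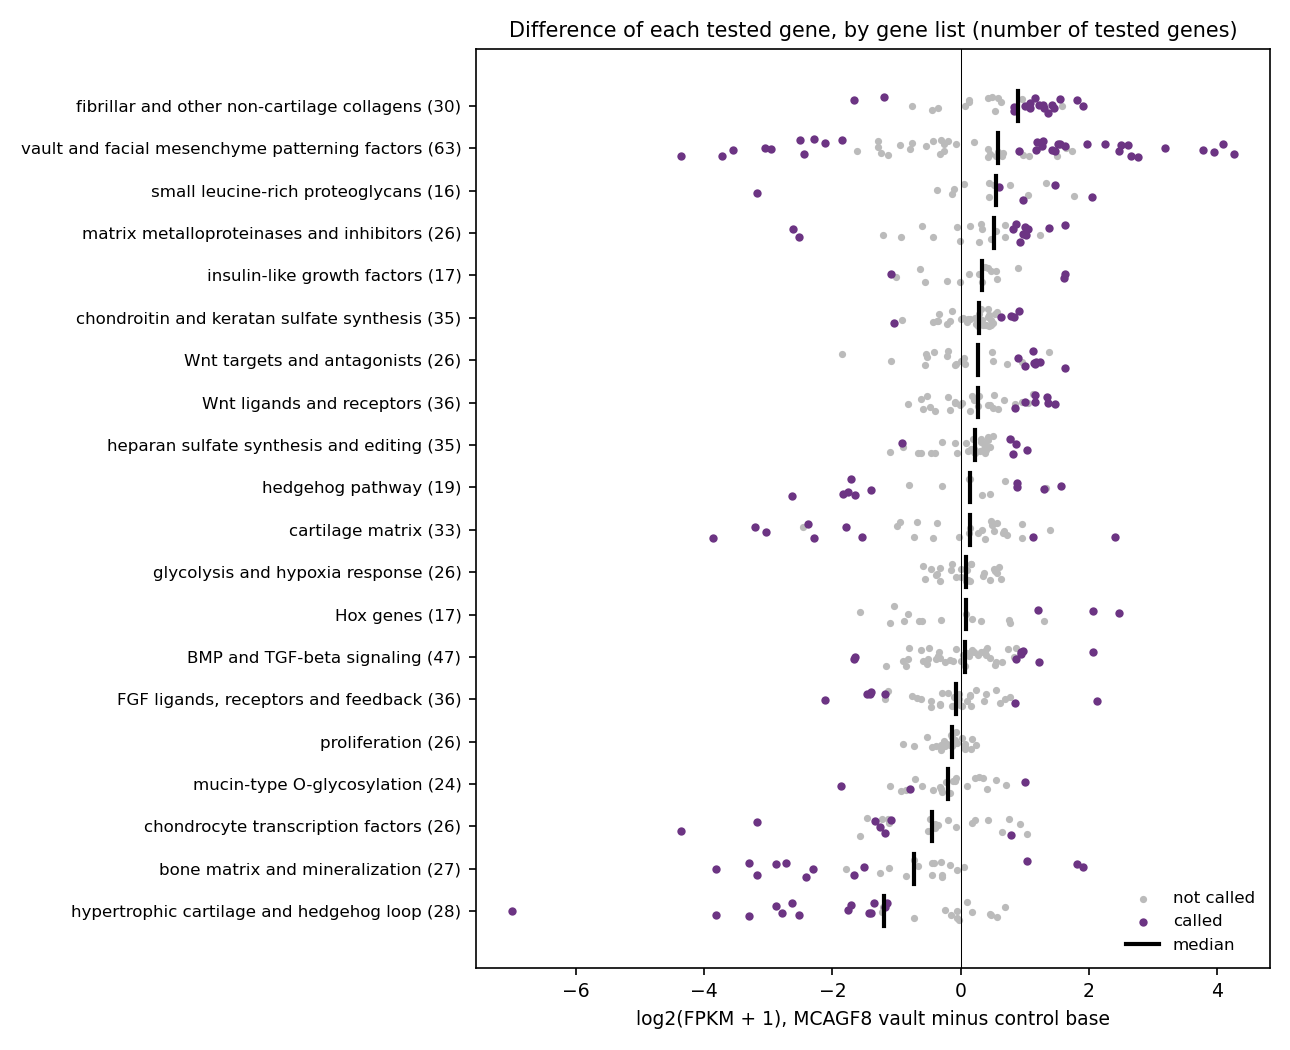
Log2 differences of the members of each gene list, MCAGF8 vault minus control base, 1 point per gene with the list's median marked and called genes in colour. The hypertrophic list has its median at -1.19 and no member called higher, while the non-cartilage collagens have their median at 0.90.

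Hedgehog components were called in both directions, 52.6% of the list against 8.39% of all genes. Of 19 members 4 were called higher and 6 lower (6 higher and 6 lower without base replicate 2, 1 and 5 with it alone). The lower ones were the ligands Ihh, Shh (-1.83) and Dhh (-1.65, named after its values were seen) and the targets that report signalling. Ptch1, the receptor induced by its own ligand, had 13.4, 11.03 and 17.5 FPKM against 30.4, 59.9 and 56.9 (log2 difference -1.70, standard error 0.28, adjusted p = 0.0113), and Gli1 and Hhip were at -1.40 and -1.76. The higher ones, named after their values were seen, were the co-receptors Cdon (1.56) and Boc (0.87), the mediator Gli2 (0.87) and the ligand exporter Disp1 (1.31). Shh is also made by notochord and pharyngeal epithelium, and Dhh by Schwann cells, whose markers were higher in the base as given below. Of the 9 calls first named for these genes, 6 held whichever library was left out, and calls were lost for Boc when any library but control base 2 was left out, Dhh when MCAGF8 vault 1 was left out and Gli2 when any MCAGF8 vault library was left out (adjusted p up to 0.197). Against base replicate 2 alone 5 held.

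Wnt genes were called in 1 direction. Called were 19.4% of the ligands and receptors and 30.8% of the targets and antagonists, against 8.39% of all genes. Among 36 ligands and receptors 7 were called higher and 0 lower (median 0.27, 10 higher and 0 lower without base replicate 2, 7 and 0 with it alone), and among 26 targets and antagonists 8 and 0 (median 0.28). Wnt5a, a ligand of the noncanonical branch, had 92.3, 74.4 and 72.4 FPKM in the MCAGF8 vault, 26.6, 36.8 and 29.4 in the base and 25.7, 39 and 23.8 in the control vault (log2 difference 1.34, standard error 0.22, adjusted p = 0.0114). Axin2, a feedback inhibitor that reads out canonical signalling, had 44.7, 47.5 and 34.5 FPKM in the MCAGF8 vault, 14.52, 23.02 and 18.3 in the base and 25.4, 19.4 and 20.4 in the control vault (log2 difference 1.15, standard error 0.22, adjusted p = 0.0178). For both genes the base and the control vault overlapped and the MCAGF8 vault lay above both. Between the vaults the values were log2 difference 1.43, adjusted p = 0.0508 for Wnt5a and log2 difference 0.92, adjusted p = 0.181 for Axin2, a comparison that shares the MCAGF8 libraries. The inhibitors Apcdd1 and Wif1 and the target Sp5 were at 1.63, 1.16 and 1.18, and the ligands Wnt3 and Wnt6 and the receptor Fzd10 at 1.36, 1.16 and 1.47. Without base replicate 2, the targets list gave 9 higher and 1 lower calls, and with it alone 6 and 0. With each library left out in turn, 4 of the 8 calls first named for these genes held, and calls were lost for Fzd10 when MCAGF8 vault 1 was left out, Sp5 when MCAGF8 vault 1 or 2 or control base 1 or 3 was left out, Wif1 when any MCAGF8 vault library or control base 1 was left out and Wnt3 when any MCAGF8 vault library was left out (adjusted p up to 0.191). Base replicate 2 alone as the base kept 4 of them.

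Fgf8, the gene of the activated allele, was not called between the tissues. It had 19.5, 9.43 and 13.03 FPKM in the MCAGF8 vault, 3.78, 17.4 and 5.82 in the base and 13.5, 8.25 and 3.01 in the control vault (log2 difference 0.78, standard error 0.57, adjusted p = 0.499). Base replicate 2 lay inside the range of the MCAGF8 vault. Reads from the activated allele and from the native gene both count as Fgf8. Among 36 FGF genes 2 were called higher and 5 lower (4 higher and 6 lower without base replicate 2, 1 and 2 with it alone), and the feedback and target genes Dusp6, Spry4 and Etv4, commonly used to read FGF signalling, were not called, with differences of 0.37, 0.17 and -0.29 (standard errors 0.19, 0.22 and 0.23). These differences are to the base only, and between the vaults the study reports Dusp6 and Spry4 as upregulated in the MCAGF8 tissue. The study counted genes at p under 0.05 as significant. In the fit used here, 0 of the 36 FGF genes were called higher and 0 lower in the MCAGF8 than in the control vault. Of the FGF list 19.4% was called, against 8.39% of all genes. Without base replicate 2, 6.35% of all genes were called higher and 18.1% lower, so the lower count of that fit is not above the background. The FGF genes called higher were Htra1 (2.13), a secreted protease, and Flrt3 (0.85). The lower ones were Fgf5 (-1.41), Fgf6 (-1.45), a ligand of muscle, Fgf13 (-2.12), an intracellular member found in neurons, Fgf7 (-1.18) and Fgf9 (-1.39). Flrt3, Fgf7 and Fgf9 were named after their values were seen.

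BMP and TGF-beta genes gave 6 higher and 2 lower calls of 47, against 2.98% and 5.41% of all genes (11 higher and 5 lower without base replicate 2, 4 and 5 with it alone), so the balance turned with the base library. Inhbb, an activin subunit, and Ltbp2, a latent TGF-beta binding protein family member, were at 2.07 and 1.22, and the ligand Bmp4 at 0.94. Lower were the joint ligand Gdf5 (-1.65) and the BMP antagonist Grem1 (-1.67). In the insulin-like growth factor list 17.6% was called, against 8.39% of all genes. Of 17 insulin-like growth factor genes, the binding protein Igfbp2 (1.63) and the protease Pappa2 (1.62) were called higher and the ligand Igf1 (-1.08) lower (6 higher and 3 lower without base replicate 2, 2 and 0 with it alone). Leaving out each library in turn kept 7 of the 15 calls first named for these genes, and calls were lost for Fgf13 when MCAGF8 vault 1 or 3 was left out, Fgf6 when any MCAGF8 vault library or control base 1 or 3 was left out, Fgf7 when MCAGF8 vault 1 or 2 or control base 1 was left out, Fgf9 and Igf1 when MCAGF8 vault 1 or 2 was left out, Flrt3 when any library but control base 2 was left out and Gdf5 and Pappa2 when MCAGF8 vault 1 was left out (adjusted p up to 0.297), while 9 held against base replicate 2 alone.

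Cartilage depends on sulfated sugar chains, and 14.3% of the genes in each of the main lists that build them were called, against 8.39% of all genes. Chondroitin and keratan sulfate synthesis gave 4 higher and 1 lower calls of 35 (median 0.29, 11 higher and 3 lower without base replicate 2, 1 and 4 with it alone), and heparan sulfate synthesis 4 and 1 of 35 (median 0.23, 7 higher and 3 lower without base replicate 2, 3 and 1 with it alone). The balance of the first list thus turned with the base library. The sulfotransferases Chst1, Chst2 and Chst14 were higher at 0.83, 0.91 and 0.78, with Chst12 (0.64, named after its values were seen), and Chst5 lower at -1.04. In the heparan list Sulf2, which removes sulfate outside the cell, Hs3st1 and Hs3st3b1 were higher at 0.87, 1.04 and 0.82, with Sdc2 (0.77, named after its values were seen), and Ndst4 lower at -0.91. Mucin-type glycosylation gave 1 higher call and 2 lower calls of 24 (3 higher and 4 lower without base replicate 2, 1 and 1 with it alone): St6galnac3 (1.01), Galnt18 (-0.79) and Gcnt2 (-1.86). The share called in this mucin-type list was 12.5%, against 8.39% of all genes. Glycolysis and hypoxia genes gave no call by limma among 26 (3 at an unadjusted p under 0.05) and proliferation genes none among 26 (4), with medians of 0.09 and -0.14. Glycolysis counts were 3 higher and 1 lower without base replicate 2, 1 and 0 with it alone, and proliferation counts 0 higher and 4 lower without base replicate 2, 0 and 0 with it alone. Of the 13 calls first named for these genes, 2 held whichever library was left out, and between 1 and 11 were lost without 1 library, most without MCAGF8 vault 1 (adjusted p up to 0.31). Against base replicate 2 alone 5 held.

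Among genes outside these lists, Cxcl14, a chemokine of dermis and head mesenchyme, had the highest difference but for a hemoglobin gene. It had 328, 436 and 248 FPKM in the MCAGF8 vault, 9.87, 5.96 and 14.1 in the base and 94.1, 96.3 and 108 in the control vault (log2 difference 4.98, standard error 0.29, adjusted p = 0.000122). Ch25h, which makes 25-hydroxycholesterol, had 30.7, 22.8 and 19.9 FPKM in the MCAGF8 vault, 0.8, 0.66 and 0.911 in the base and 17.01, 14.9 and 21.1 in the control vault (log2 difference 3.81, standard error 0.23, adjusted p = 0.000122), and Apod, a lipid carrier, had 566, 606 and 412 FPKM in the MCAGF8 vault, 53.7, 74.0 and 72.5 in the base and 364, 468 and 447 in the control vault (log2 difference 2.96, standard error 0.22, adjusted p = 0.000502). Cxcl14 was also above the control vault in every MCAGF8 library, whereas Ch25h and Apod overlapped between the vaults. The agouti gene (symbol a), a secreted regulator of pigment cells, had 20.3, 31.9 and 16.02 FPKM in the MCAGF8 vault, 2.901, 0.435 and 4.22 in the base and 1.33, 2.16 and 2.65 in the control vault (log2 difference 2.89, standard error 0.46, adjusted p = 0.0108), so here the MCAGF8 vault stood above both other tissues (log2 difference 2.93, adjusted p = 0.0511 between the vaults). Veph1, Cpxm2 and the lincRNA Gm38079 were at 3.52, 2.84 and 3.04. Gm13992, a processed pseudogene whose reads may belong to its parent gene, was listed at 0 in all 6 vault libraries and had 109.8, 30.7 and 25.8 FPKM in the base. With each library left out in turn, 5 of the 7 calls first named for these genes held, and calls were lost for Cpxm2 when MCAGF8 vault 1 was left out and Gm38079 when any library but control base 1 and control base 2 was left out (adjusted p up to 0.258). Base replicate 2 alone as the base kept 5 of them.

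Markers of other cell types also differed widely between the tissues, and their part in the results above was not tested. Against 8.39% of all genes, 91.7% of the skeletal muscle list and 78.9% of the neuron list were called. Skeletal muscle had 22 of 24 members called lower, and its median was -4.34 (0 higher and 22 lower without base replicate 2, 0 and 0 with it alone). Mylpf, a fast muscle light chain, had 9.82, 14.9 and 76.8 FPKM against 7750.3, 845 and 2911 (log2 difference -6.82, standard error 0.98, adjusted p = 0.00782), and the other muscle genes among the lowest were Acta1 (-5.65), Myl1 (-5.94), Tnnc2 (-6.15), Tnni2 (-5.43), Ckm (-5.61), Csrp3 (-5.69) and Sln (-6.33). Neurons had 15 of 19 called lower (median -3.17, 0 higher and 16 lower without base replicate 2, 0 and 10 with it alone), cranial ganglia 6 of 12 and Schwann cells 6 of 10. Prph, the intermediate filament of peripheral neurons, had 1.59, 0.911 and 1.94 FPKM against 92.1, 104 and 559 (log2 difference -6.17, standard error 0.74, adjusted p = 0.0041), and the neuronal genes Stmn3, Stmn4, Sncg and Tceal7 were at -6.18, -5.35, -6.17 and -5.67. The crest factor Sox10 was at -3.06.

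Base tissue also carried more RNA of pharyngeal epithelium markers, with 80.0% of that list called against 8.39% of all genes. Of 15 pharyngeal epithelium markers 12 were called lower (0 higher and 14 lower without base replicate 2, 0 and 1 with it alone), and the list summed to 44.6, 58.97 and 68.8 FPKM in the MCAGF8 vault and 345, 197 and 495 in the base. Krt8 and Krt18, the keratins of simple epithelia, were at -3.65 and -3.57 and Epcam at -2.49. The notochord list summed to 12.1, 20.4 and 14.7 against 106, 70.5 and 164 FPKM. Its 4 lower calls of 6 were Shh, Foxa2, Krt8 and Krt18, which it shares with the lists above, so no call was particular to notochord. Inner ear markers summed to 36.5, 31.9 and 36.3 in the MCAGF8 vault and to 52.5, 946 and 129 in the base, where replicate 2 stood apart again.

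Fewer marker genes were higher in the MCAGF8 vault. Epidermal markers summed to 557, 532 and 1370 FPKM in the MCAGF8 vault, 659.8, 155 and 896 in the base and 85.8, 160.2 and 60.6 in the control vault, with the defining keratin Krt5 at 149, 139 and 252 against 39.2, 17.8 and 117 FPKM (not called, adjusted p = 0.246). Only Epcam was called in that list, lower. Endothelium had 5 of 14 called higher (5 higher and 0 lower without base replicate 2, 0 and 0 with it alone), the junction protein Cdh5 at 0.90 and the VEGF receptor Kdr at 0.73 among them, and macrophages 4 of 15, such as Csf1r (1.35) and Mrc1 (1.04). Dermis markers gave 5 higher and 2 lower calls of 17. The shares called were 35.7% for endothelium, 26.7% for macrophages and 41.2% for dermis, against 8.39% of all genes. Hba-a2, an alpha globin whose reads its near-identical copy Hba-a1 can share, had 644, 1269 and 447 against 184, 4.18 and 4.79 FPKM (log2 difference 5.34, standard error 1.37, adjusted p = 0.0583). In tendon the matrix proteins Thbs2 (1.74), Fmod (2.05) and Tnc (1.46) were higher and Thbs4 (-2.82) lower.

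The remaining marker lists gave at most 4 calls each, but most of them had a larger share called than the 8.39% of all genes. Brain progenitors had 0 higher and 4 lower calls of 12, meninges 2 and 1 of 14, and erythroid cells 3 and 1 of 14. Melanocytes had 1 higher call of 6, osteoclasts 1 of 7 and stress genes 1 of 15. Pituitary markers had 2 lower calls of 4 and inner ear markers 2 of 15. The share called was 33.3% for brain progenitors, 28.6% for erythroid cells, 21.4% for meninges and 6.7% for stress genes. The pituitary share was the highest of these lists but rests on 2 calls. Ribosomal protein and sex-linked genes gave no call by limma among 31 and 5 (3 and 0 at an unadjusted p under 0.05). The fit without base replicate 2 called 18 of the 31 ribosomal genes lower, against 18.1% of all genes, a share well above that background. No defining marker of any list was at 0 in all 3 libraries of the MCAGF8 vault or of the base. The part of these cell types in the results above was not tested. Leaving out each library in turn kept 20 of the 25 calls first named for these genes, and calls were lost for Epcam when MCAGF8 vault 1 or 2 was left out, Cdh5 when MCAGF8 vault 1 or 2 or control base 1 was left out, Hba-a2 when any MCAGF8 vault library or control base 3 was left out, Kdr when any library but control base 2 was left out and Mrc1 when MCAGF8 vault 1 or 3 was left out (adjusted p up to 0.234), while 12 held against base replicate 2 alone.

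**Figure D5:**
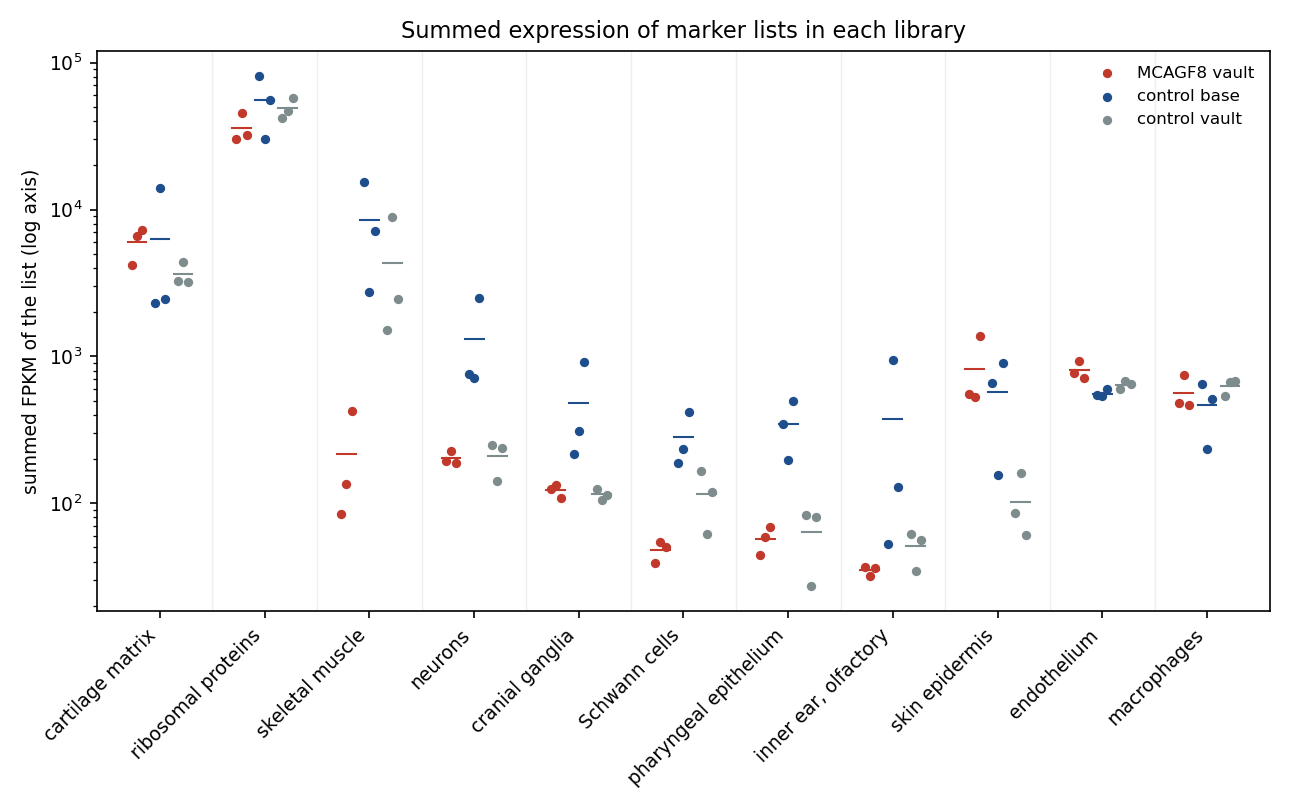
Summed FPKM (log axis) of the marker lists in each library, 1 point per library and a line at the mean, for the MCAGF8 vault, control base and control vault. Muscle sums are lowest in the MCAGF8 vault, 84.9 to 427, and the cartilage sum of base replicate 2, 14030, lies apart from the other base libraries.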

How the data were processed

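RNA from pooled tissue was made into stranded mRNA libraries and sequenced as single-end reads. Per the study's methods the authors aligned reads with gSNAP and estimated FPKM per gene with Cufflinks (per the submitters' processing notes). The deposited table holds those FPKM values, and the sources used here give no version, genome build, annotation or strand setting for the counting. FPKM keeps no read depth, so no counting interval can be given.

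Identifiers were matched to GENCODE M21 symbols (42375 of 43548), 63 repeated identifiers were summed, and 9 genes with a placeholder value were left out. Genes with a mean of at least 0.5 FPKM over 9 libraries (18714) entered a fit by limma 3.58.1 (R 4.3.3) on log2(FPKM + 1), with 3 group means and a mean-variance trend, and the fit was tested on simulated data. Columns of other libraries were used only as control vault values.

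Comparison, members and 41 gene lists (20 of biology, 21 of markers) were chosen with earlier results of these data known. Named by rule were 15 called genes at each end of the log2 difference, among those without overlap and with at least 5 FPKM in the higher group, the 10 most abundant called genes, each list's defining genes and up to 4 of its called members, and Fgf8; genes the rule left out are marked in the text. Of 970 list entries 8 had no identifier in the table and were not analysed here. Ratios within a library were compared with a two-sided exact permutation test. Some items are not reported here.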

Additional observations from a re-analysis of the deposited data

How the results depend on the processing

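Of the 1571 calls as a count (558 higher, 1013 lower), settings that moved it by over 1.5 times were these. A mean of at least 5 FPKM gave 834 calls (435 lower), only the 6 libraries compared 875 (246 higher, 629 lower), no moderation 869 (467 lower), and array weights 4381 (1065 higher, 3316 lower), with a weight of 0.237 for control base 2 and 11.2 for MCAGF8 vault 1 from an estimate that did not converge. An adjusted p under 0.05 left 941 (323 and 618), and an unadjusted p under 0.05 gave 3675 (1278 and 2397). A common median gave 880 higher calls, quantile normalization 1153 and the exon length slope as covariate 841, the last chosen after seeing the data. Base replicate 2 alone gave 984 (575 lower). Leaving out each library in turn gave 559 to 4580 calls, 209 to 1189 higher and 350 to 3391 lower. The median difference over all genes was -0.0664 as deposited, 0.112 with libraries rescaled to the same sum and 0.0842 after quantile normalization. Apart from the muscle and neuron covariates no setting turned the sign of a called gene. The causes were not tested.

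Whether equal replicate numbers mark shared embryos could not be told. Deviations of same-numbered MCAGF8 vault and base libraries, which come from different embryos, correlated at -0.271, -0.549 and -0.29. For same-numbered control base and control vault libraries, whose embryos are the same set, the correlations were -0.409, 0 and 0.24. With the number as a replicate block 918 genes were called, 282 higher and 636 lower.

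With the summed muscle and neuron lists as covariates, 0 genes were called (0 higher, 0 lower; 976 at an unadjusted p under 0.05), with 4 residual degrees of freedom. The difference then turned below 0 for Zic1 (-1.37), Acan (-3.50), Col2a1 (-3.58), Sox9 (-2.15), Matn4 (-1.01), Col9a3 (-2.33), Zic2 (-3.03), Zic4 (-1.79), Fn1 (-0.52), Boc (-0.02), Sp5 (-0.60), Fgf8 (-2.41), Flrt3 (-0.56), Cpxm2 (-1.12), Mlana (-0.14) and Nfatc1 (-0.11), and above 0 for Mmp13 (0.49), Pitx1 (1.32), Mmp24 (0.15), Ifitm5 (0.98), Dhh (0.55), Fgf13 (1.06), Galnt18 (0.34) and Dapl1 (1.02). With base replicate 2 alone it turned for Acan (-1.47), Col2a1 (-1.34), Sox9 (-0.59), Col9a3 (-0.63) and Fgf8 (-0.35). The fibrous collagens per Col2a1 turned without control base 2, so that over the libraries left out Col1a1 ranged from -0.35 to 1.54, Col3a1 from -0.80 to 1.14 and Col14a1 from -0.30 to 1.13.

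Over 27 alternatives the 146 called genes named in the text gave 3914 values, of which 3240 kept direction and call, 655 kept direction only and 19 turned.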

Other observations

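A few calls belonged to cell types other than those already described. Mlana, a melanosome protein and the sole called melanocyte marker, had 2.41, 2.67 and 1.52 FPKM in the MCAGF8 vault, 0, 0.636 and 0 in the base and was listed at 0 in all 3 control vault libraries (log2 difference 1.42, standard error 0.26, adjusted p = 0.0154). Mlana was so low in both other tissues that it reached the mean of 0.5 FPKM needed for a test through the MCAGF8 vault alone. Its call is therefore no support for a direction of pigment cell genes. The other 5 tested melanocyte markers were not called. The list summed to 34.2, 30.3 and 37.9 FPKM in the MCAGF8 vault and 7.15, 29.25 and 20.5 in the base. Nfatc1, a factor of osteoclasts and heart valves, was the sole called osteoclast marker at 1.40, and Hmox1, the heme-degrading enzyme that macrophages and stressed cells make, the sole called stress gene at 0.85. Pomc, the pituitary hormone precursor, had 1.83, 1.89 and 1.88 FPKM in the MCAGF8 vault, 4.21, 5.94 and 3.11 in the base and 2.25, 2.22 and 2.57 in the control vault (log2 difference -0.89, standard error 0.23, adjusted p = 0.0648). Among the meningeal markers, Lama1, a basement membrane laminin, was at 1.05 and Dapl1 at -2.90. Among the erythroid ones, the embryonic globin Hba-x was at 2.28, the heme synthesis enzyme Alas2 at 0.89 and Tmod1, also a muscle gene, at -2.84. Of the 9 calls first named for these genes, 4 held whichever library was left out, and calls were lost for Alas2 when any library but control base 2 and control vault 1 was left out, Dapl1 when MCAGF8 vault 1 was left out, Hmox1 when any MCAGF8 vault library or control base 3 or control vault 2 or 3 was left out, Lama1 when any library but control base 2 was left out and Pomc when any library but control base 2 and control base 3 was left out (adjusted p up to 0.3). Against base replicate 2 alone 3 held.

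Otog, a protein of the membranes over the hair cells of the inner ear, had 0.0362, 0.0343 and 0.0296 FPKM in the MCAGF8 vault and 0.211, 10.9 and 0.245 in base replicates 1, 2 and 3. It was not called (adjusted p = 0.351), and among the base libraries replicate 2 was far above the others.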
